A study of Mus musculus with 9 samples.

Results

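The genes described here mark pituitary tissue in RNA from the mouse hypothalamus. The list held Cga, Tshb, Prl, Gh and Pitx1, and its genes were chosen by name with their KO and WT levels in these same libraries in view. Of the 5 genes listed, 3 had a row among the 14351 genes of the table, namely Cga, Tshb and Pitx1. Neither the symbols nor the Ensembl identifiers of Prl and Gh had a row, so both genes are not analysed here. Because the choice of genes rested on the same contrast, their values in Clic1 KO and WT mice are a description. They also entered the limma fit over all genes, and how many of them passed its thresholds is given once beside the share of all genes, as support for nothing.

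Hypothalamic RNA was sequenced from 5 whole-body Clic1 KO mice (replicates 2, 4, 6, 8 and 10) and 4 WT littermates (replicates 1, 3, 9 and 11), 1 library per mouse. All mice were male and ate normal chow, and their age is not given in the sources used here. Replicate 10 carries conflicting labels, since its title and treatment call it WT and its description names it with the K libraries, where it was placed. The labels also give the strain as C57b/6J and the treated tissue as frozen adipose, whereas the study's methods name hypothalamus and a CD-1 background. All 10 hypothalamic marker genes had a row and were above 0 in every library, and none of the 5 adipose markers had one. Clic1 itself was at most 1.93 CPM (a gene's reads relative to the library total, scaled between libraries) in KO and at least 3.58 CPM in WT libraries, with 1.43 CPM in replicate 10. Estimated totals on the listed genes ran from 5.45 to 20.8 M reads over KO libraries and from 7.28 to 11 M reads over WT libraries, and replicate 10 had the largest.

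The pituitary hangs below the hypothalamus, and its pars tuberalis wraps the median eminence and the stalk, so a dissected hypothalamus can carry some of it. Thyroid-stimulating hormone (TSH), luteinizing hormone and follicle-stimulating hormone share the alpha subunit encoded by Cga, and each adds a beta subunit of its own, which for TSH is encoded by Tshb. Pars tuberalis cells make TSH under the influence of melatonin, and this TSH is known to act on neighbouring tanycytes, where it raises the deiodinase gene Dio2. Pitx1 encodes a homeodomain transcription factor of the early pituitary that remains in hormone cells. Prl and Gh encode prolactin and growth hormone of the anterior lobe. In bulk tissue, fewer pituitary cells and less RNA per cell cannot be told apart.

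Tshb (ENSMUSG00000027857) spans 102775465 to 102782718 of chromosome 3 (GRCm38, minus strand), inside the span of Tspan2 on the other strand but with no exon of Tspan2 within it. Cga (ENSMUSG00000028298) spans 34893779 to 34907370 of chromosome 4 (plus strand), and 305 of its 954 exonic bases are shared with the noncoding gene Platr9 on the other strand. Pitx1 (ENSMUSG00000021506) spans 55825051 to 55836192 of chromosome 13 (minus strand), and it shares 165 of its 2656 exonic bases with Gm47071 on the other strand and 108 with Gm28760 on its own. Neither Platr9 nor those Gm genes had a row. None of the 3 lies on chromosome 17, where Clic1 is. The sources used here do not state whether counting used strand, so reads in the shared bases could not be assigned with certainty.

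The RefSeq promoters of the TSH subunit genes are shown because the subunits join in TSH and their RNA was followed together in each library. A promoter was found in the table for 3 of the 5 listed genes, Cga, Tshb and Prl. The 250 bases before the start site are given in the direction of transcription on GRCm38.p6, at chr4:34893529-34893778 on the plus strand for Cga and chr3:102782715-102782964 on the minus strand for Tshb, with TATAAA (or its reverse complement TTTATA) in capitals.
Cga: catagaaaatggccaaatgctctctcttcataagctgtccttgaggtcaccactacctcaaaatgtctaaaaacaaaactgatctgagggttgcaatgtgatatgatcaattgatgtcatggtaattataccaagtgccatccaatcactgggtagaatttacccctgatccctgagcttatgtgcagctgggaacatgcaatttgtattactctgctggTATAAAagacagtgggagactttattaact
Tshb: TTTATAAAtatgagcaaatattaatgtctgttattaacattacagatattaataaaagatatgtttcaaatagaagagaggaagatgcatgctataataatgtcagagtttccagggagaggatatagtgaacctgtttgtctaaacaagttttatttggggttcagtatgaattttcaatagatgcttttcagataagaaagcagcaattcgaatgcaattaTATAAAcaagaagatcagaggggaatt
Counted back from the start site, TATAAA began at base -30 in Cga and at base -27 in Tshb, and Tshb held a further match from base -250 to -243 where both strands overlap. Of the 32851 promoters of this length in the table, 12.4% held TATAAA on either strand. The bicoid-type homeodomain motif TAATCC, the class of site that Pitx1 is known to bind, was searched on both strands and did not occur in either window, and it occurred in 6.25% of all promoters. The POU1F1-type motif ATGNATA (7.92% of all promoters) and the cyclic AMP response element TGACGTCA (1.55%) did not occur in either window. Only these letters were searched, so variants such as the tgatgtca in the Cga window were not counted.

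Tshb, which gives TSH its specificity, had the lower values in the KO libraries. It was 3.35, 7.12, 4.21, 7.04 and 3.91 CPM in KO replicates 2, 4, 6, 8 and 10, and 16.1, 7.98, 9.9 and 10.9 CPM in WT replicates 1, 3, 9 and 11. The 5 KO libraries all lay below the 4 WT libraries, with replicate 4 as the highest KO library and replicate 3 as the lowest WT library. KO mice averaged 5.12 ± 1.81 CPM (SD, n = 5) and WT mice 11.2 ± 3.47 CPM (SD, n = 4), 2.19 times as high. The log2 difference, KO minus WT on log2(CPM + 0.1), was -1.14 with a standard error of 0.26 in limma. The nearest libraries, KO replicate 4 and WT replicate 3, rested on about 54 and 77 reads, and their 95% Poisson intervals of 5.35 to 9.3 and 6.3 to 9.98 CPM overlapped. With replicate 10 grouped as WT, as its title says, the groups overlapped, because its 3.91 CPM was then the lowest WT value, and the log2 difference was -0.77. Without replicate 10 it was -1.06 and the groups stayed apart.

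Cga, the shared alpha subunit, varied far more between mice of the same genotype. Its levels were 0.876, 8.44, 0.366, 4.67 and 0.735 CPM in KO replicates 2, 4, 6, 8 and 10, and 10.1, 2.69, 7.38 and 2.07 CPM in WT replicates 1, 3, 9 and 11. KO libraries fell into low values in replicates 2, 6 and 10, below every WT library, and values in replicates 4 and 8 that lay within the WT range. KO mice averaged 3.02 ± 3.5 CPM (SD, n = 5) and WT mice 5.56 ± 3.85 CPM (SD, n = 4). The log2 difference was -1.42 (standard error 0.80 in limma), less than the SD within groups of 1.53 on the log2 scale. Cga rested on about 2 reads in KO replicate 6, with a 95% Poisson interval of 0.0445 to 1.33 CPM, and on about 112 reads in WT replicate 1. The highest library exceeded the lowest 27.6-fold, with a counting interval of 7.47 to 231, and it exceeded KO replicate 10, with about 15 reads, 13.7-fold (7.95 to 25.3). Among KO mice alone, replicate 4 was 11.5 times replicate 10, with a counting interval of 6.42 to 21.5. These intervals treat the rounded read estimates as counts and cover counting error only.

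Pitx1 followed with smaller differences. It was 1.53, 3.16, 1.1, 4.85 and 1.98 CPM in KO replicates 2, 4, 6, 8 and 10, and 4.97, 2.8, 4.5 and 4.27 CPM in WT replicates 1, 3, 9 and 11. As for Cga, KO replicates 2, 6 and 10 lay below every WT library and replicates 4 and 8 within the WT range. KO mice averaged 2.52 ± 1.51 CPM (SD, n = 5) and WT mice 4.14 ± 0.939 CPM (SD, n = 4). The log2 difference was -0.84 (standard error 0.37 in limma), and with replicate 10 grouped as WT it was -0.61. For Cga that grouping gave -0.67.

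**Figure D1:**
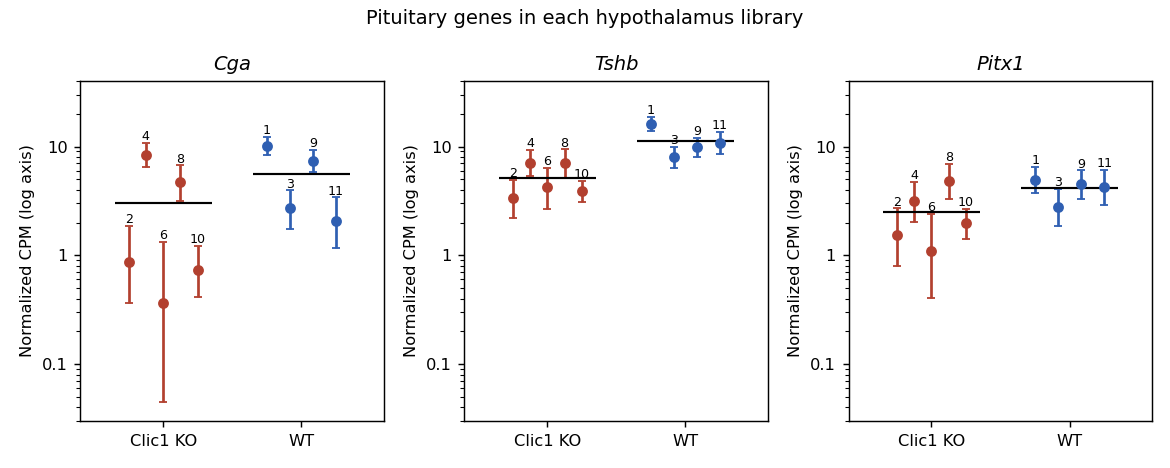
Normalized CPM on a log axis of Cga, Tshb and Pitx1 in the 5 Clic1 KO and 4 WT libraries, numbered by replicate, with 95% Poisson intervals from estimated reads and a black line at each group mean. The KO libraries of Tshb reach 7.12 CPM and the WT libraries start at 7.98 CPM, whereas for Cga and Pitx1 KO replicates 4 and 8 lie among the WT libraries.

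All 3 genes had a log2 difference below 0, as did 49.6% of all genes. None of the 3 had an adjusted p under 0.05 in limma, where 0.286% of all genes did (0.139% higher and 0.146% lower in KO), and 2 of the 3 had an unadjusted p under 0.05, where 6.5% of all genes did. The libraries of the groups did not overlap for 1 of the 3, Tshb, and for 3.41% of all genes (1.74% lower and 1.67% higher in KO). Since the genes were listed with this contrast known, nothing is read from these counts.

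Per kilobase of the longest protein-coding transcript, Tshb had the highest level of the 3 in every library but one. Its KO libraries spanned 5.53 to 11.8 CPM per kb and its WT libraries 13.2 to 26.6 CPM per kb. Cga spanned 0.518 to 11.9 CPM per kb over KO libraries and 2.92 to 14.3 CPM per kb over WT libraries, and Pitx1 0.448 to 1.98 and 1.14 to 2.03 CPM per kb. The exception was KO replicate 4, where Cga per kilobase was 1.01 times Tshb. The ratio of the 2 subunit RNAs was not constant among mice, since Cga over Tshb per kilobase ran from 0.0744 to 1.01 in KO (median 0.224) and from 0.162 to 0.638 in WT libraries (median 0.413). Pitx1 over Tshb per kilobase varied less, from 0.0644 to 0.17 in KO and from 0.0763 to 0.112 in WT libraries. The ratios overlapped between the groups in both cases.

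The 3 genes placed the same libraries at the top and the bottom but differed between them. WT replicate 1 was highest for all 3, and WT replicate 9 held rank 3 for each. KO replicates 2, 6 and 10 took the lowest places for each of them, in a different order each time. The ranks in between differed, since WT replicate 11 held rank 6 for Cga, 2 for Tshb and 4 for Pitx1, KO replicate 4 ranks 2, 5 and 5, and KO replicate 8 ranks 4, 6 and 2. Across the 9 libraries, Pearson's r of log2(CPM + 0.1) was 0.87 between Cga and Pitx1, 0.86 between Tshb and Pitx1 and 0.80 between Cga and Tshb, and Spearman's rho was 0.83, 0.75 and 0.68. After each group's mean was subtracted, r was 0.84, 0.81 and 0.81, so the genes also varied together among mice of a genotype. With the 2 libraries farthest from the median of the first-named gene left out, r was 0.75, 0.83 and 0.70 over 7 libraries. These values are descriptive, since the points share their libraries and depth and the genes were chosen together.

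**Figure D2:**
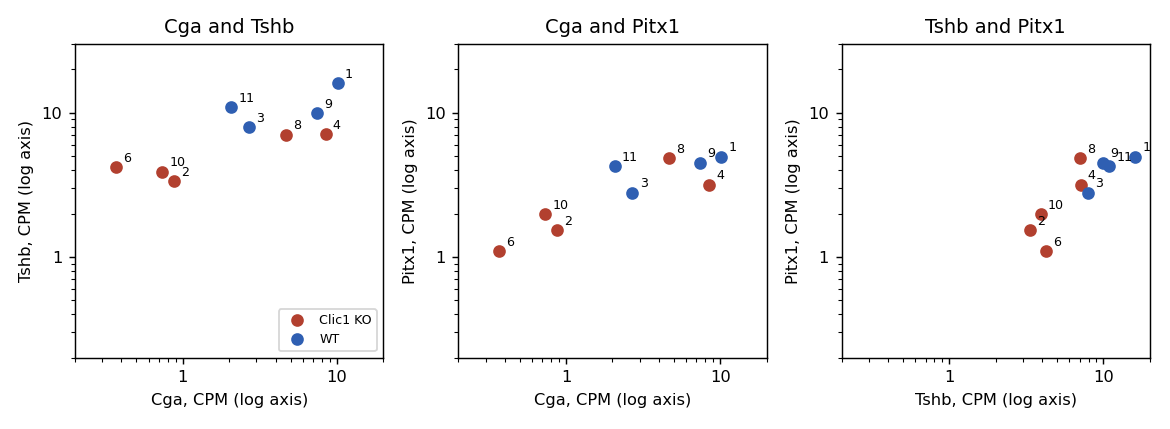
Tshb and Pitx1 against Cga, and Pitx1 against Tshb, in each library, all in CPM on log axes, with Clic1 KO in red and WT in blue and replicates numbered. KO replicates 2, 6 and 10 sit at the low end of each plot and WT replicate 1 at the high end, and r runs from 0.80 to 0.87.

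Transcription factors of the pituitary lineage other than Pitx1 were listed to see which of them varied with these genes. Of the 15 listed, 9 had a row, and none passed the threshold between KO and WT in limma, adjusted or unadjusted. Their median log2 difference was -0.15, against 0.00089 over all genes.

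Gata2, Tbx19 and Lhx3 were singled out after their values were seen. Gata2, a factor of thyrotrope and gonadotrope cells, had an r of 0.83 with Cga, 0.89 with Tshb and 0.77 with Pitx1. Its log2 difference was -0.51 (standard error 0.27, adjusted p = 0.795 from limma). Tbx19, the factor of corticotrope cells, had an r of 0.81 with Cga and 0.85 with Pitx1 but of 0.62 with Tshb. Lhx3, a LIM homeodomain factor required for the gland to form, had an r of 0.80 with Pitx1 but of 0.66 with Cga and 0.46 with Tshb. It ranged from 0.183 to 2.03 CPM. With the 2 libraries farthest from the median of Cga left out, r with Cga was 0.87 for Gata2, 0.62 for Tbx19 and 0.29 for Lhx3, so the relation of Lhx3 to Cga rested on those libraries. Isl1 and Six6, among the highest of the list, stayed within 14.6 to 22.1 and 10.7 to 18.8 CPM, and both are also known from hypothalamic neurons.

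**Figure D3:**
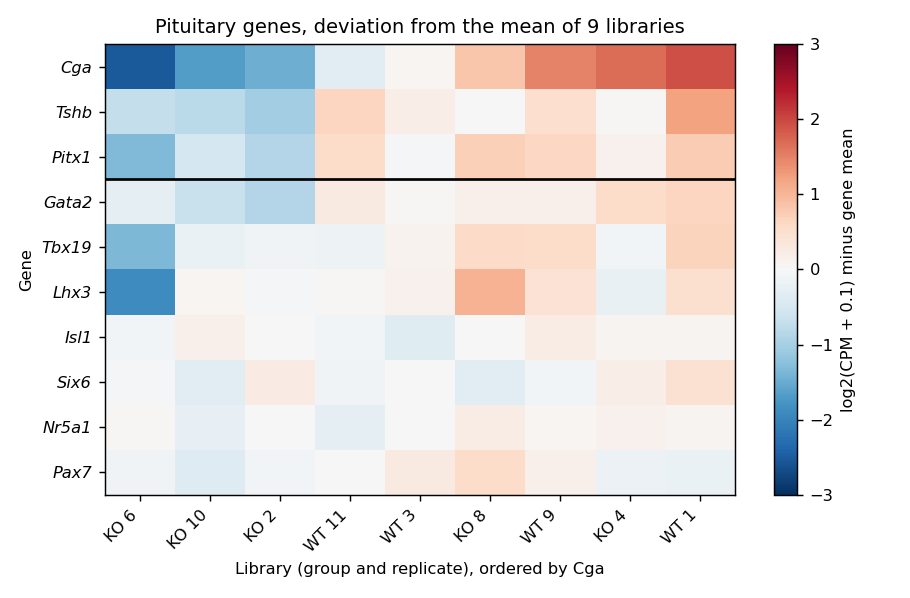
Deviation of log2(CPM + 0.1) from each gene's mean over the 9 libraries (colour), for Cga, Tshb and Pitx1 (above the line) and 7 other pituitary lineage factors, with libraries ordered by Cga. Gata2, Tbx19 and Lhx3 shade from low to high roughly with Cga, and Isl1, Six6, Nr5a1 and Pax7 vary less.

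Other hormones and receptors of the gland were compared next. Of 12 listed, 9 had a row, and none passed the threshold in limma, adjusted or unadjusted. Their median log2 difference was -0.20, with 6 below 0 and 3 above. The hormone genes were among those above 0. Lhb, the beta subunit that joins the product of Cga in luteinizing hormone, averaged 1.13 ± 0.316 CPM (SD, n = 5) in KO mice and 1.01 ± 0.254 CPM (SD, n = 4) in WT mice, with a log2 difference of 0.14 (adjusted p = 0.948 from limma). Pomc, the precursor of corticotropin that arcuate neurons also make, spanned 16.7 to 52.3 CPM over KO libraries and 21.3 to 31.4 CPM over WT libraries, with a log2 difference of 0.09 (adjusted p = 0.965 from limma), and its r with Cga was 0.20. Its highest value was in replicate 10, where Cga was at 0.735 CPM. Drd2, the dopamine receptor of lactotropes and of many neurons, had a log2 difference of -0.21 (adjusted p = 0.807 from limma), and Esr1, an estrogen receptor, one of -0.23 (adjusted p = 0.845). Crhr1, the receptor of corticotropin-releasing hormone, spanned 4.38 to 5.93 CPM over KO libraries and 6.0 to 6.42 CPM over WT libraries. Its groups did not overlap, as for 3.41% of all genes, but the gap was below 1 read in KO replicate 4 (0.132 CPM) and WT replicate 9 (0.1 CPM). Its log2 difference was -0.29 (adjusted p = 0.788 from limma), and with replicate 10 grouped as WT the groups overlapped. Lhb and Crhr1 were named after their values were seen.

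Genes that work in the pars tuberalis were compared together with genes that its TSH is known to act through. Of 9 genes listed for the pars tuberalis and its TSH relay, 7 had a row, and none passed the threshold in limma, adjusted or unadjusted. The median log2 difference of the list was -0.08. Tshr, the TSH receptor, spanned 5.86 to 7.35 CPM over KO libraries and 5.51 to 8.2 CPM over WT libraries, a log2 difference of -0.07 (standard error 0.15, adjusted p = 0.949 from limma). Dio2, which converts thyroxine to its active form, spanned 10.8 to 20.8 CPM over KO libraries and 13.5 to 20.5 CPM over WT libraries, a log2 difference of -0.09 (standard error 0.19, adjusted p = 0.946 from limma). Tshr and Dio2 were named after their values were seen. Tef, Per1 and Eya3, the highest of the list, are transcriptional regulators that follow the clock or day length in the pars tuberalis and are also expressed in brain. Their log2 differences were 0.07, -0.08 and -0.15 (adjusted p = 0.862, 0.929 and 0.829 from limma).

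**Figure D4:**
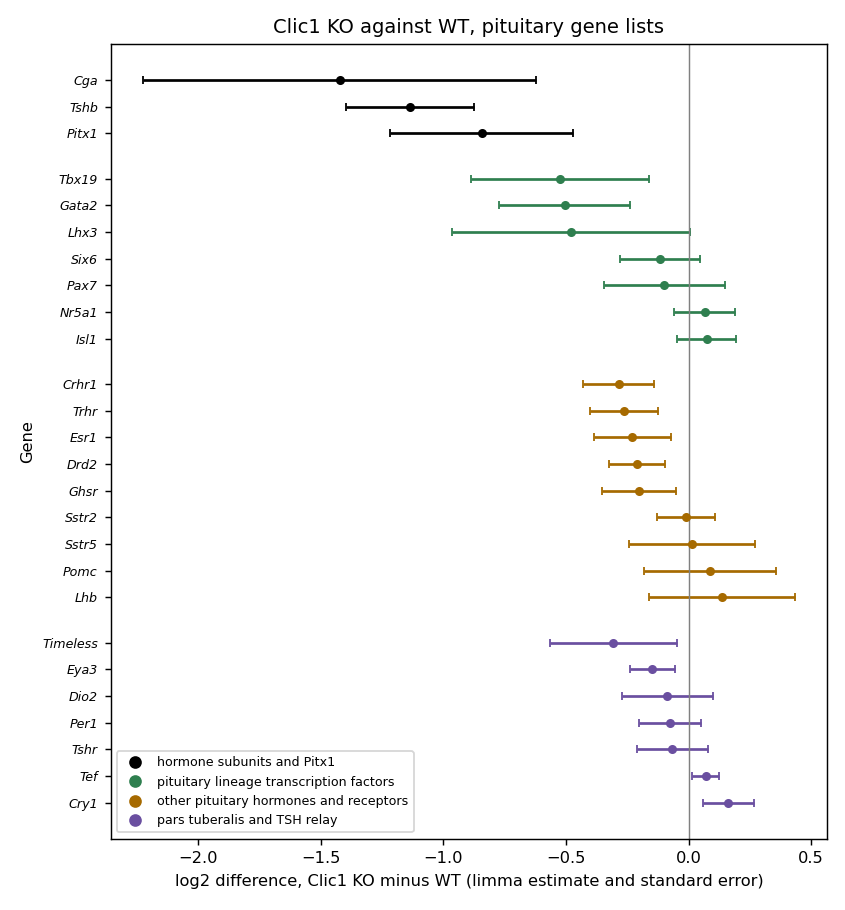
Log2 difference, Clic1 KO minus WT, with its standard error from limma for Cga, Tshb and Pitx1 and for genes of 3 lists of other pituitary genes. Cga, Tshb and Pitx1 lie at -1.42, -1.14 and -0.84, and no gene of the 3 lists passed an adjusted p of 0.05.

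Hypothalamic neuropeptide and dopamine genes, of which only some govern pituitary hormones, were compared in the same fit. Of 13 listed neuropeptide and dopamine genes, 11 had a row, and 1, Avp, passed the threshold. Avp, which encodes vasopressin, was at least 189 CPM in each KO library and at most 123 CPM in each WT library, with a log2 difference of 0.90 (limma standard error 0.10 and adjusted p = 0.0027). The title of replicate 10, taken at its word, gave 0.58 (limma adjusted p = 0.687). Across all libraries, r of Avp was -0.76 with Tshb, -0.43 with Cga and -0.54 with Pitx1. After group means were subtracted, r of Avp was 0.03 with Tshb, 0.02 with Cga and 0.04 with Pitx1. Sst and Trh, the other genes of highest level, encode somatostatin, which inhibits growth hormone release, and the releasing hormone of TSH. Their log2 differences were -0.08 and -0.15 (adjusted p = 0.918 and 0.88 from limma). In the receptors and signalling genes of growth hormone and prolactin, all 11 had a row and none passed, adjusted or unadjusted. Stat5b, Prlr and Jak2, the highest of them, had log2 differences of 0.08, -0.17 and 0.07 (adjusted p = 0.879, 0.856 and 0.892 from limma).

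Markers of neighbouring tissues also differed between the libraries, and their part in the Cga, Tshb and Pitx1 values was not tested. The summed level of all 10 meningeal markers spanned 95.8 to 458 CPM over KO libraries and 107 to 252 CPM over WT libraries, and no marker was at 0. It was highest in KO replicates 8, 4 and 2 and WT replicate 9, and 114 CPM in WT replicate 1, the library with the most Cga, Tshb and Pitx1. Of the 10 markers, 9 had a log2 difference above 0, opposite in sign to Cga, Tshb and Pitx1, and the median was 0.67. Within the KO group the order was not opposite, since replicates 4 and 8 also held the most Cga, Tshb and Pitx1. Slc22a6, a meningeal marker named after its values were seen, had an r of 0.32 with Cga, 0.19 with Pitx1 and -0.21 with Tshb. After group means were subtracted, these were 0.60, 0.55 and 0.18. Igf2, Dcn and Col1a2, the highest of them, had log2 differences of 0.72, -0.06 and 0.61, with Dcn the 1 marker below 0, and none of the 10 passed the threshold in limma (2 with an unadjusted p under 0.05). Tanycyte and pituicyte markers, all 9 with a row, summed to between 308 and 405 CPM over KO libraries and between 330 and 357 CPM over WT libraries, and none passed (1 with an unadjusted p under 0.05). The highest, Col25a1, Vim and Scn7a, had log2 differences of -0.03, 0.30 and -0.21, and the list a median of -0.03. Rax, a tanycyte homeobox gene named after its values were seen, spanned 4.33 to 5.54 CPM over KO libraries and 2.76 to 4.31 CPM over WT libraries. The groups did not overlap, as for 3.41% of all genes, but the gap was below 1 read in KO replicate 6 (0.184 CPM). With replicate 10 grouped as WT the groups overlapped for Rax. The 4 choroid plexus markers with a row of 7 listed (Clic6, Kl and F5 the highest) summed to 41.9 to 55 and 37.8 to 49.3 CPM, and the 1 blood marker with a row of 5 listed, Alas2, was 9.79 to 13.4 and 7.58 to 10.3 CPM. None of these passed, and 1 of each list had an unadjusted p under 0.05 in limma.

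The genes whose pattern over the 9 libraries was most like each pituitary gene were sought among 14269 others with a mean of at least 1 CPM. Cga was matched most closely by Fam102b (r = 0.95) and Foxl2 (0.94). Foxl2, a forkhead factor, was low throughout, at 0.901, 1.85, 0.549, 2.03 and 0.791 CPM in KO replicates 2, 4, 6, 8 and 10 and at 2.35, 1.24, 1.4 and 1.1 CPM in WT replicates 1, 3, 9 and 11. Its lowest and highest libraries were those of Cga. For Tshb they were Kxd1 (0.95), Rasgrp1 (0.93) and Exph5 (0.93), and for Pitx1 Ifnar1 (0.95), Cd14 (0.94) and Nup62cl (0.93). Among all genes compared, Pitx1 ranked 20th and Tshb 98th in likeness to Cga. Without replicate 10, 1 of the 3 genes stayed among the top 3 for Tshb and for Pitx1, and none for Cga.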

How the data were processed

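Hypothalamic RNA from 5 Clic1 KO and 4 WT mice was analysed. Per the study's methods and the submitters' processing notes, reads were checked with FastQC 0.11.8, trimmed with Trimmomatic 0.38, aligned to GRCm38.p6 with STAR 2.5.1a and counted with RSEM 1.3.0 and Ensembl release 98. The authors kept genes with at least 1 CPM in at least 5 samples, applied TMM scaling with edgeR and deposited the normalized signal in CPM. Of the 14351 genes, 14338 reached 1 CPM in at least 4 of the 9 libraries. A table of the authors' own comparison (log2 fold changes, p-values) was used only for its gene symbols. In the normalized table, 1 column matched no sample and was not used.

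On log2(CPM + 0.1), linear models of genotype alone were estimated for all genes by limma 3.58.1 (R 4.3.3, eBayes with a trend), and p-values were adjusted by Benjamini-Hochberg over all genes with a threshold of 0.05. Fold changes on this scale understate the change of low genes. The fit was tested on simulated data. The step between the lowest values gave the CPM of 1 read (0.0494 to 0.184). Only 81.3% to 86.6% of values up to a few CPM lay within 0.03 reads of a whole read, so no count test was run and read numbers are approximate. Each mouse is a replicate, so p-values reflect the spread between mice, within which mouse and library preparation cannot be separated.

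The member genes and all lists were chosen with earlier results of these data known. Named were the pituitary genes, Clic1, list genes past the threshold, the 3 of highest mean in each list (Pmch, Avp and Hcrt for the hypothalamic markers) and the 3 most like each pituitary gene by Pearson correlation, of which some are not reported here. Positions are from GENCODE mouse release 21 on GRCm38, and promoters from RefSeq on GRCm38.p6.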

Additional observations from a re-analysis of the deposited data

Results flagged for a closer look

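In 7 of 80 groups of values examined (KO or WT libraries of 1 gene), 1 library lay far from the rest, where chance gives about 4. None was Cga, Tshb or Pitx1. Some of the genes examined were chosen for their likeness to these, so the count is a description. In replicate 10, placed with the KO mice, Avp was 255 CPM, with 189 to 200 CPM among the remaining KO mice, Sst was 132 against 89.9 to 101 CPM, and Stat5b was 105 against 87.8 to 91.4 CPM. In KO replicate 6, Drd2 was 27.5 against 21.3 to 22.9 CPM. In WT replicate 1, where Cga, Tshb and Pitx1 were highest, Six6 was 18.8 against 12.7 to 13.7 CPM. In the same library Exph5 was 7.33 against 5.79 to 5.9 CPM. Exph5 was examined only for its likeness to Tshb, so a high value there follows from how it was chosen. In WT replicate 9, the meningeal marker Igf2 was 117 against 37.6 to 46.7 CPM.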

How the results depend on the processing

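The log2 differences of Cga, Tshb and Pitx1 stayed below 0 and moved by less than the SD within groups under both other pseudocounts, both other scalings, replicate 10 grouped as WT and each library left out. For Cga that SD, 1.53, exceeded the size of its difference, -1.42, so the bound would not have flagged even a fall to 0. With replicate 10 grouped as WT, Cga was at -0.67. With each library left out, Cga ranged from -1.998 to -0.95, Tshb from -1.28 to -0.95 and Pitx1 from -1.12 to -0.61. The 41 genes past the threshold became 5 with replicate 10 grouped as WT, 27 with a mean of at least 5 CPM and 135 with sample weights, and ranged from 18 (without WT replicate 1) to 87 (without KO replicate 10) as each library was left out, with 27 without KO replicate 6, 25 without KO replicate 8, and 19, 24 and 22 without WT replicates 3, 9 and 11. The cause was not tested. Of the list genes, 1 passed in each fit and 0 with replicate 10 grouped as WT. Of the 3 genes most like Cga, 0 remained with Spearman's rho and 0 without replicate 10. For Tshb 1 remained without replicate 10, and for Pitx1 0 remained with rho and 1 without replicate 10. Of 502 comparisons of 28 single genes, 497 kept their side of the threshold, 5 were no longer past it (4 for Clic1 and 1 for Avp) and 0 reversed. Clic1 had an adjusted p of 0.0153 in limma, which became 0.501 with replicate 10 grouped as WT and 0.0893, 0.0826 and 0.0702 without WT replicates 1, 3 and 9. No scaling moved the median of all genes by over 0.1. No paired analysis was possible because the KO and WT mice share no replicate numbers. At a few reads per library, values such as Cga in KO replicate 6 are limited by depth.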

Other observations

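Of the dopamine genes, Slc6a3, the dopamine transporter, was 77.1 CPM in WT replicate 11, against 3.44 to 12.1 CPM in the other WT libraries and 5.4 to 22.7 CPM in KO libraries. Th, the enzyme that starts dopamine synthesis, was 53.2 CPM in the same library, against 21.2 to 25.4 CPM in the other WT libraries. In that library Cga was 2.07 CPM, the lowest of the WT libraries, and Tshb 10.9 CPM. Igfbp2, which encodes a binding protein of insulin-like growth factors, was 29.9 and 31.9 CPM in KO replicates 4 and 8, where Cga was highest among KO mice, and at most 14.6 CPM in KO replicates 2, 6 and 10. In WT replicates 1, 3, 9 and 11 Igfbp2 was 7.6, 7.15, 18.4 and 6.75 CPM. Its highest WT library was replicate 9 and that of Cga replicate 1, while replicates 3 and 11 were lower for both genes. The summed meningeal markers were also highest in replicates 8 and 4 among KO libraries, at 458 and 356 CPM. Among WT libraries their sum was highest in replicate 9, at 252 CPM. The source of the Igfbp2 differences was not tested.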
